A study of Homo sapiens with 9 samples.

Results

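The resting gene expression of A2780 cells was described from the untreated samples alone, 3 of the 9 samples of the series, chosen by their labels and not by any measured value. A2780 is a human cell line grown from an ovarian carcinoma, so the samples stand for 1 line and not for a tumour type. The untreated cells received no agent, and the labels name no vehicle. The other groups of the series were given DIG-MSK, an analogue of the GC-binding antibiotic mithramycin, at 8 nM or 80 nM for 24 h, with 3 samples each, and were not used here. Total RNA from separate cultures was hybridised to 1-colour arrays, and the probes that could be named measured 19719 genes. All 3 untreated arrays lay on the same slide and were scanned together, so neither slide nor scan differed among them. With 1 group there was nothing to compare it with, and the values are given as levels, spreads and counts without a test.

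Carcinoma cells often carry traces of their origin, because transcription factors that specify a tissue tend to stay on in tumours from it. High-grade tumours of the ovary usually keep the Müllerian factor PAX8 and epithelial keratins and junctions, while other forms lose junctions and take on mesenchymal genes. Growth factor receptors pass signals from outside the cell to kinases and transcription factors, many of which are oncogenes, while tumour suppressors hold division back or repair DNA.

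A level is the background-corrected signal on the log2 scale, taken relative to its array's 75th percentile over gene spots, so a gene with a level above 0 is among the brighter signals of the array. A gene was counted as on when the scanner software found at least 1 of its probes well above background on all 3 arrays, and as off when it found none on any array. By that rule 13581 genes (68.9%) were on, 918 genes (4.66%) were on in only some arrays, and 5220 genes (26.5%) were off. The share of spots well above background was 65.4%, 66.7% and 65.7% on the 3 arrays, and no gene spot was saturated. The lowest level well above background was -5.97, -6.21 and -6.07, so the level of a gene that was off has only a bound. Of the 5220 genes that were off, 71 (1.36%) had a mean measured level above -5.97, up to -5.11 for FGFR2. The arrays were close to each other, with a median SD of 0.093 over the genes that were on, and 90% of these genes had an SD under 0.23. Untreated replicate 1 stood slightly apart, being the farthest from the median array for 45.2% of the genes that were on, against 28.4% and 26.5% for the others.

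The calls were checked on gene families that nearly every cultured cell reads and on families confined to specialised tissues. All 83 cytosolic ribosomal protein genes, all 36 complex I subunit genes and 79 of 80 mitochondrial ribosomal protein genes were on, as were 20 of 20 housekeeping genes. Olfactory receptor genes, which are read in sensory neurons of the nose, were on in 32 of 353 cases (9.07%), and 1 of them had a level above 0. Other families of specialised tissues were on more often, beta-defensin genes in 5 of 31 cases (16.1%), taste receptor genes in 8 of 28 (28.6%) and keratin-associated protein genes in 38 of 84 (45.2%). A call of on at a faint level thus says little about a gene by itself. The 95th percentile of the levels of these receptors was -4.57. A gene that was on at or below that mark is therefore not distinguished here from the faint signal of olfactory receptors, and 12662 genes (64.2%) were on above it. Levels of different genes were not ranked, since probes differ in brightness. Where a gene is called low or faint, or set against 0 or the olfactory mark, the words describe its probe's signal. That signal also depends on the brightness of the probe. Of 3291 genes with several probes on, 74.8% had probes that differed by more than 1 in level. The level given for a gene is that of its highest probe that was on, and its lower probes are printed for some genes only. With the mean of a gene's probes that were on, 18 of the 140 key genes that were on moved by more than 1. KRT18, FGFR1, RARA, FANCF, CDH2 and GPC3 then went from above 0 to below it.

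**Figure D1:**
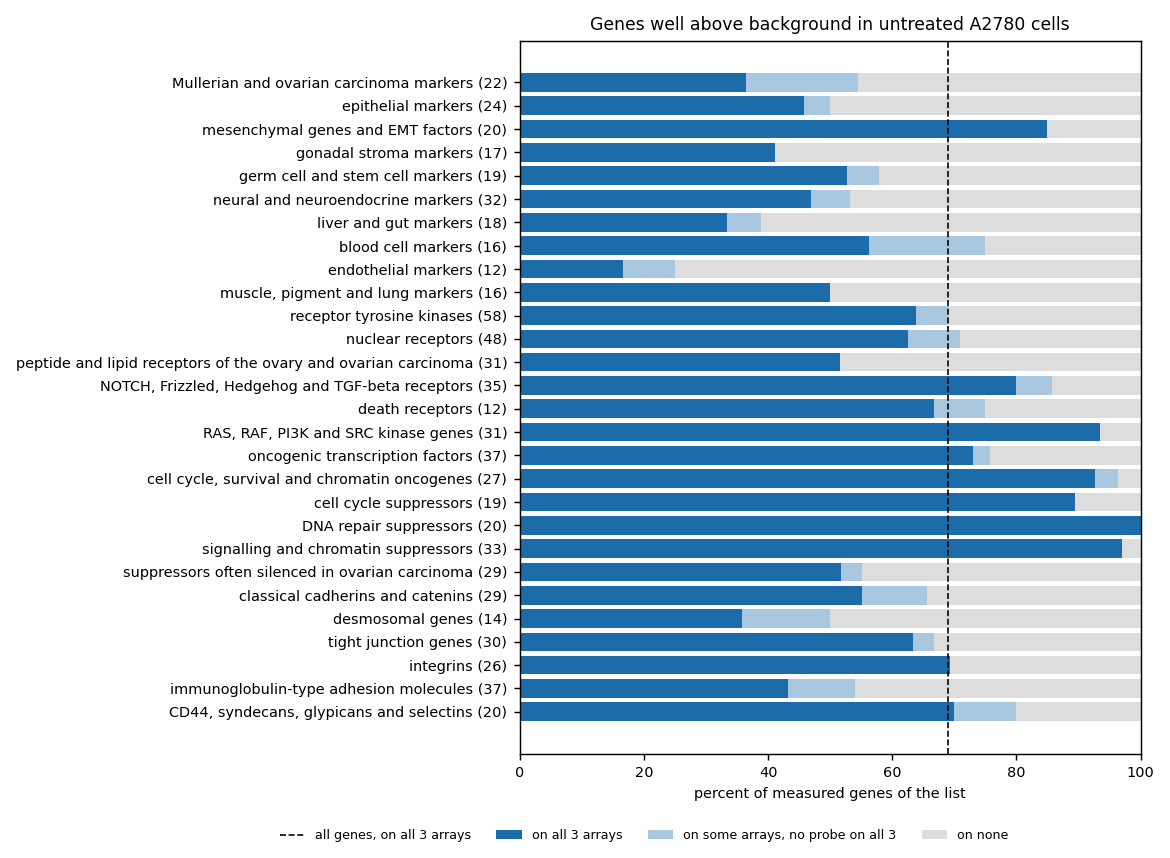
Percent of each list's measured genes called on every untreated array, on some of them, or on none, with the number of genes measured in parentheses. The dashed line is the share of all genes on all 3 arrays (68.9%), and the DNA repair list reaches 100% while the endothelial list stays at 16.7%.

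The lists held 704 measured genes, of which 453 (64.3%) were on, close to the 68.9% of all genes, but the lists differed widely from each other. Lineage genes were on in 93 of 196 cases and adhesion genes in 88 of 156. Receptor genes were on in 119 of 184 cases, which is near the share of all genes. Oncogenes were on in 81 of 95 cases and tumour suppressors in 84 of 101.

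The label of an ovarian carcinoma line was first set against markers of the Müllerian duct, the embryonic tube that forms the oviduct and uterus, and of ovarian carcinoma. Of 22 such genes, 8 were on and 10 were off. WT1 and SOX17, factors of serous carcinoma, were off, and so were EMX2, a factor of the developing urogenital tract, and MECOM, a zinc-finger factor often amplified in ovarian carcinoma. MUC16, which encodes the serum marker CA125, and MSLN, which encodes mesothelin, were off as well. PAX8 stood at -5.83, -5.81 and -5.99, and only the second array called it well above background. WFDC2, the gene of the serum marker HE4, was called on the second array alone by each of its 2 probes. The folate receptor FOLR1, common on ovarian carcinoma cells, was on at -1.38, -1.53 and -1.67.

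PAX2, a kidney and Müllerian paralogue of PAX8, was singled out after its values were seen, at 4.36, 4.27 and 4.35. Among the other members, HOXA10 and HOXA9, which pattern the reproductive tract, were on by 1 of 2 probes each, while HOXA11 was off. PAX2, FOLR1, HOXA9 and HOXA10 were thus on, WT1, SOX17 and MUC16 were off, and PAX8 was called on the second array alone. A2780 is called here only by its name and label. In bulk RNA, fewer cells of a type and less RNA per cell cannot be told apart.

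**Figure D2:**
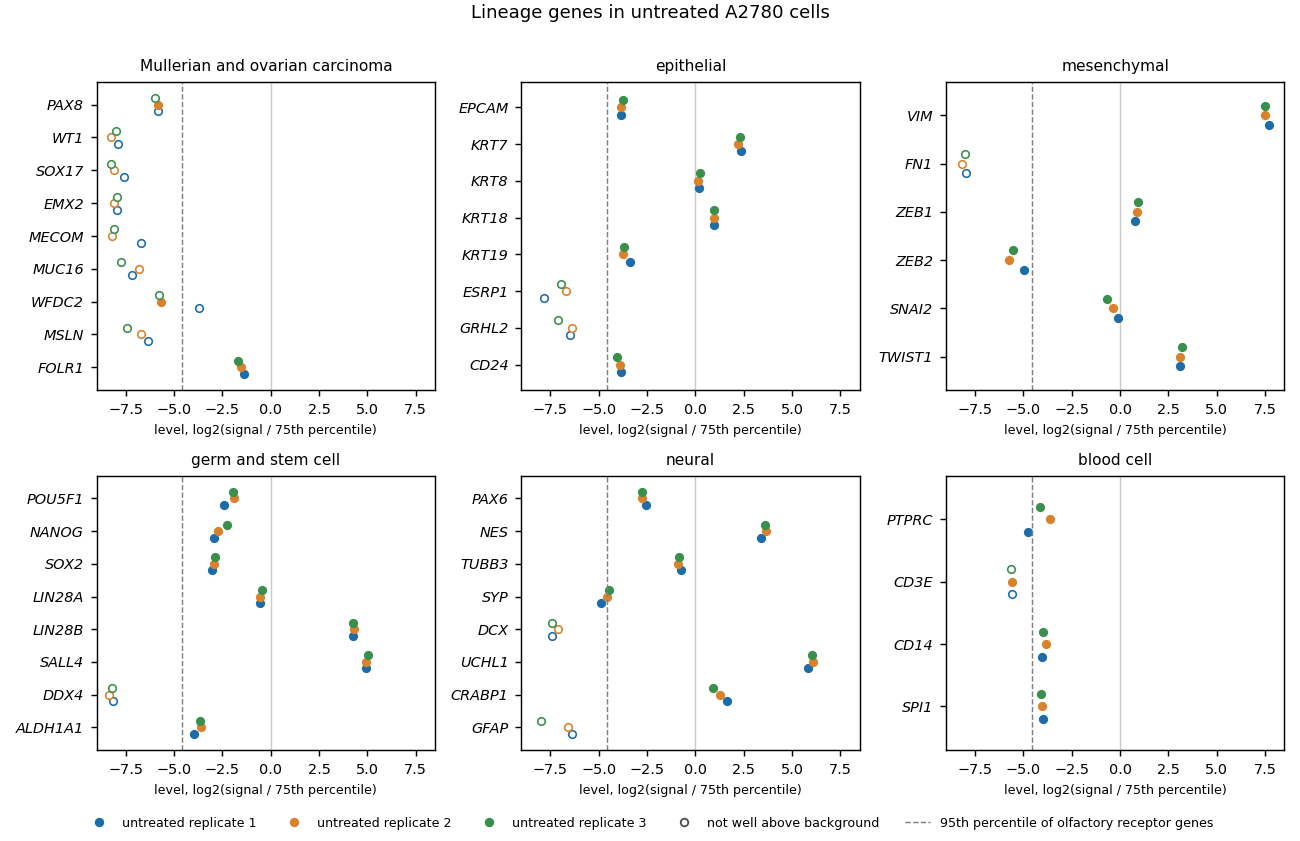
Level of each lineage gene on the 3 untreated arrays, in log2 units relative to the 75th percentile of the array. Filled points were well above background and open points were not, and the dashed line is the 95th percentile of olfactory receptor genes (-4.57). VIM, TWIST1, SALL4, LIN28B, NES and UCHL1 lie well to the right with points close together, and WT1, SOX17, FN1 and DDX4 are open on every array.

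Epithelial genes were split in the same way, with 11 of 24 on and 12 off. The simple keratins, the filaments of single-layered epithelia, were on in 4 of 4 cases. KRT7 was at 2.35, 2.23 and 2.31, and its partner KRT18 was at 0.96, 0.94 and 0.96, with a second probe at -2.45, -2.51 and -2.52. KRT8 read 0.20, 0.15 and 0.24 by 1 of its 2 probes, the other being off, and KRT19 was low at -3.36, -3.75 and -3.69. The keratins of layered epithelia and gut (KRT5, KRT14, KRT17 and KRT20) were all off. The splicing regulator ESRP1 and the grainyhead factor GRHL2, which maintain the epithelial programme, were off too, together with OVOL1 and OVOL2. Another grainyhead factor, GRHL1, was on. EPCAM, the surface adhesion molecule used to capture carcinoma cells, was on at a low level, -3.87, -3.87 and -3.72. CD24, a surface glycoprotein of epithelial and tumour cells, was also low at -3.85, -3.91 and -4.07.

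Mesenchymal genes were on in 17 of 20 cases, 10 of them at a level above 0, where 47.4% of all genes that were on had such a level. Vimentin (VIM), the intermediate filament of mesenchymal cells, was at 7.70, 7.50 and 7.48. The 5 measured ZEB, SNAI and TWIST factors, which repress epithelial genes, were all on, ZEB2 only under the olfactory mark. TWIST1 was at 3.09, 3.09 and 3.19, with a second probe at -0.83, -1.13 and -1.05. ZEB1 was at 0.80, 0.86 and 0.94, and SNAI2 was at -0.11, -0.34 and -0.67. ZEB2 was called on all arrays by 1 of 2 probes at -4.97, -5.73 and -5.54. THY1, TAGLN, ACTA2, PRRX1 and the collagen genes COL1A1, COL1A2 and COL3A1 were also on. Fibronectin (FN1), one of the most used mesenchymal markers, was off, and so were FAP and FOXC2. Mesenchymal factors and vimentin were thus on in the same samples as simple keratins, with fibronectin off.

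Germ cell and stem cell genes gave 10 of 19 on. SALL4, a zinc-finger factor of embryonic and germ cells, was at 4.95, 4.95 and 5.04. LIN28B, an RNA-binding protein that blocks the maturation of let-7 microRNAs, was at 4.27, 4.30 and 4.26, and its paralogue LIN28A was at -0.54, -0.53 and -0.47. The 3 arrays differed by under 0.1 for each of these genes. The core pluripotency factors were on at low levels, POU5F1 at -2.39, -1.88 and -1.94, NANOG at -2.94, -2.71 and -2.28, and SOX2 at -3.02, -2.92 and -2.87. A second POU5F1 probe was lower, with a mean of -4.02. POU5F1 and NANOG have expressed pseudogene copies, and a probe may read them too. DDX4 and DAZL, which mark germ cells, were off, as were DPPA2, DPPA4, TFAP2C, PRDM1, KLF4 and PROM1. ALDH1A1, an aldehyde dehydrogenase used as a stem cell marker in ovarian carcinoma, was low at -3.97, -3.61 and -3.65.

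Neural genes were on in 15 of 32 cases, and the pattern was of single genes rather than of neurons as a whole. UCHL1, a ubiquitin hydrolase of neurons, was at 5.84, 6.09 and 6.04, and NES, the filament nestin of neural progenitors, was at 3.42, 3.63 and 3.61. CRABP1, which binds retinoic acid, varied more, at 1.65, 1.27 and 0.90, and untreated replicate 1 was the highest. TUBB3, the neuronal tubulin, was at -0.75, -0.89 and -0.85, and PAX6, an eye and brain factor, was at -2.57, -2.77 and -2.76 by 1 of its 3 probes, another of which was off. SYP, a synaptic vesicle protein, was near the olfactory mark at -4.88, -4.56 and -4.44. The neuronal migration gene DCX and the astrocyte filament GFAP were off by all their probes. So were the proneural factors NEUROD1 and NEUROG2, the neuronal genes STMN2, GAP43, NEFM, ELAVL2 and ELAVL4, and the glial genes OLIG2, S100B and SOX10. KIF1A, a neuronal transport motor, and ISL1, a factor of motor neurons, were on at levels above 0.

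Genes of other lineages were mostly off or faint. Endothelial markers were on in 2 of 12 cases, with PECAM1 off and CDH5 at -3.18, -3.21 and -3.18. Liver and gut markers were on in 6 of 18 cases, none of them at a level above 0, and ALB, HNF4A and CDX2 were off. AFP, the fetal serum protein of liver and yolk sac, was below the olfactory mark at -4.96, -5.21 and -5.57. Gonadal stroma markers were on in 7 of 17 cases. NR5A1, GATA4 and GATA6, the factors of steroid-producing gonadal cells, were off. FOXL2, the factor of granulosa cells, read -0.08, 0.10 and -0.04 by 1 probe and was off by the other. INHA, the inhibin subunit those cells secrete, was below the mark at -5.32, -5.30 and -5.07. Muscle, pigment and lung markers were on in 8 of 16 cases, with MYOD1 and MLANA off. The muscle filament DES was at -0.76, -0.81 and -0.89, and NKX2-1, the factor of lung and thyroid, was at -0.07, -0.08 and -0.05.

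Blood cell markers were on in 9 of 16 cases, 7 of them between -5.48 and -3.93 in mean level, of which 5 lay above the olfactory mark. The pan-leukocyte gene PTPRC read -4.76, -3.60 and -4.14 by 1 of 4 probes and was off by the others. CD14, of monocytes, was at -4.05, -3.85 and -3.97, and the myeloid factor SPI1 was at -3.99, -4.02 and -4.10. CD3E, of T cells, was called on the second array alone. CD4 and CD79A, singled out after their values were seen, were the 2 exceptions. CD4, the co-receptor of helper T cells, was at 2.65, 2.65 and 2.66, and CD79A, a chain of the B cell receptor, was at 1.37, 1.44 and 1.56. Each was measured by 1 probe, and other genes of the same cells were faint or not on, with CD3D and CD8A on at mean levels of -4.65 and -3.93, CD3E not on in all arrays and MS4A1 off.

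As an example of the sequences in front of an expressed and a silent lineage gene, the 250 bases before the start of LIN28B (on) and of ALB (off) are shown from RefSeq on GRCh38.p14, in lower case with each CG pair in capitals, since CG-rich starts are typical of widely read genes. LIN28B lies at chr6:104940715-104940964, plus strand, and holds 33 CG pairs. ALB lies at chr4:73404037-73404286, plus strand, and holds 3.
LIN28B: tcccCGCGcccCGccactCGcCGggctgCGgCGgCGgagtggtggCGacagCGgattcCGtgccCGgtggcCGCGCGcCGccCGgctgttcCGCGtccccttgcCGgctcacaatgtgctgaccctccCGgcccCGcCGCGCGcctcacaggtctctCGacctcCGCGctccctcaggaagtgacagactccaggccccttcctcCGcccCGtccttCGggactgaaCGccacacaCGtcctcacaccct
ALB: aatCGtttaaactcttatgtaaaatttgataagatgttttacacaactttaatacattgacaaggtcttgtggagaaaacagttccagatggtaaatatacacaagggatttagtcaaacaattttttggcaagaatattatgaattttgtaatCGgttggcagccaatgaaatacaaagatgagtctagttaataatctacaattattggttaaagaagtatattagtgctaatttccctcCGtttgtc

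This contrast held over the whole array as a description. Of the genes measured, 15323 had a start in the RefSeq table, and the median number of CG pairs in the 250 bases was 20 for the 10808 genes that were on and 5 for the 3838 that were off. The share of genes that were on was 34.7% with 0 to 4 CG pairs, 55.9% with 5 to 9 and 75.9% with 10 to 14. Above that it levelled out, between 81.4% and 87.1%. The GC box, searched as GGGCGG or CCGCCC so that both strands were read, was found in 65.1% of the genes that were on and 34.4% of those that were off, against 56.4% of all. GC boxes are bound by the Sp1 family, and their bases overlap with the count of CG pairs. TATAAA or its reverse complement TTTATA was found in 6.25% of the genes that were on and 15.8% of those that were off, against 8.92% of all. The lists did not all follow these shares. Lineage genes had a median of 10 CG pairs for the 55 that were on and 7 for the 54 that were off, and a GC box in 45.5% and 48.1% of them. Tumour suppressors had a GC box in 60.9% of the 69 that were on and 75% of the 12 that were off.

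**Figure D3:**
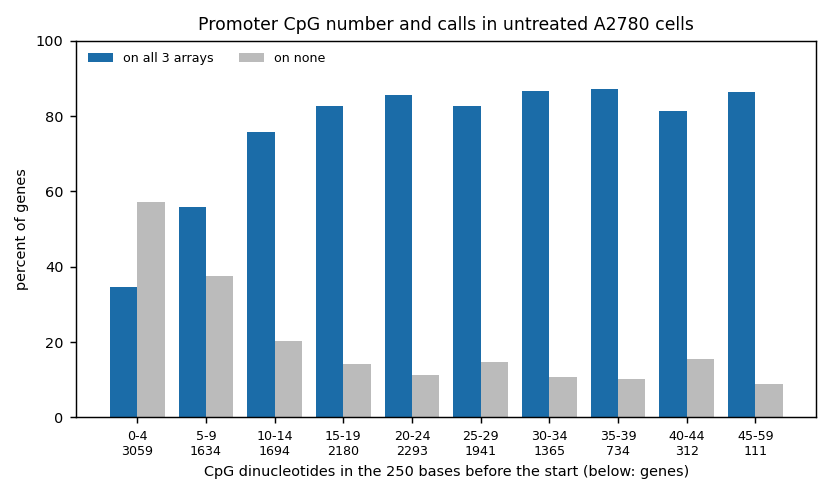
Percent of genes on all 3 untreated arrays (blue) and on none (grey), by the number of CG pairs in the 250 bases before the gene's start, with the number of genes under each class. The blue bars rise from 34.7% to 75.9% over the first 3 classes and then stay between 81.4% and 87.1%.

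Receptor tyrosine kinases bind growth factors outside the cell and signal through RAS and PI3K within. They were on in 37 of 58 cases (63.8%), near the 68.9% of all genes. All 4 members of the EGF receptor family were on. ERBB2 was at 1.37, 1.38 and 1.34, ERBB4 at -1.52, -1.78 and -1.83, and ERBB3 at -3.55, -3.14 and -3.09. ERBB4 was off by another probe, and so was ERBB3. EGFR itself lay below the olfactory mark at -4.94, -5.0 and -4.91, and 1 of its 3 probes was off. PDGFRA, a receptor of mesenchymal cells, was at 1.40, 1.19 and 1.19, and FGFR1 was at 0.99, 0.60 and 0.59, with untreated replicate 1 the highest for both. FGFR2, the epithelial member of that family, was off. AXL, a receptor linked to the mesenchymal state, was at 0.91, 1.08 and 1.09, and TYRO3 and MERTK of the same family were on.

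The insulin receptor INSR was at -0.07, -0.01 and -0.03, and IGF1R was at -3.28, -3.85 and -3.67. MET, the receptor of hepatocyte growth factor, lay below the olfactory mark at -4.84, -4.98 and -4.71. KIT, the stem cell factor receptor, was off by all 3 of its probes, and of the VEGF receptors FLT1 and KDR were off while FLT4 was on at a mean level of -1.47. EPHA2, a receptor of ephrins at cell contacts, was at -2.10, -1.62 and -1.81, and 9 of 14 Eph receptors were on. RET, of the glial-derived factors, was at -4.02, -3.85 and -4.05.

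**Figure D4:**
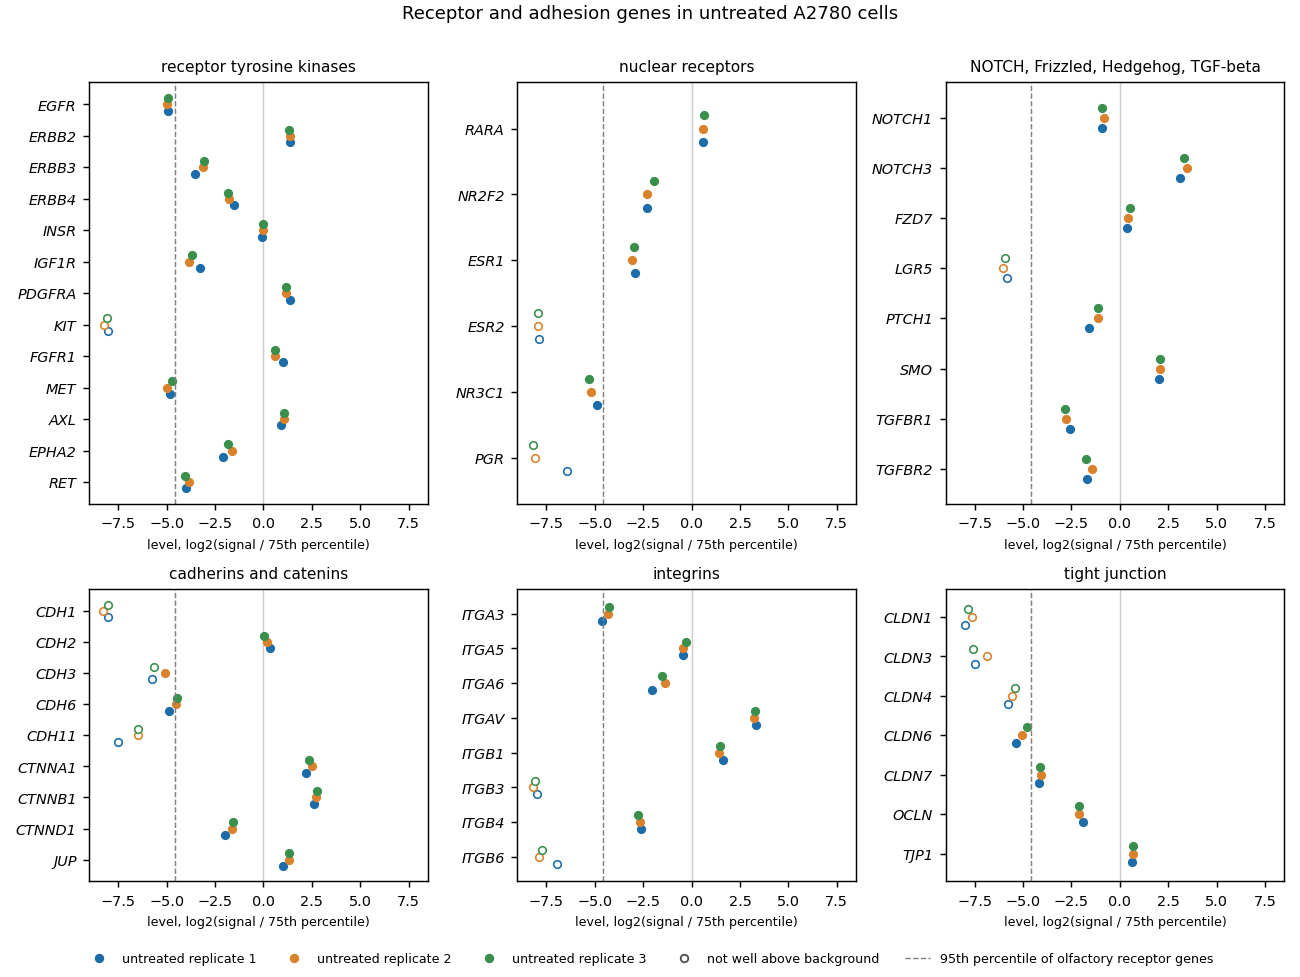
Level of receptor genes (upper row) and adhesion genes (lower row) on the 3 untreated arrays, in log2 units relative to the 75th percentile of the array. Filled points were well above background and open points were not, and the dashed line is the 95th percentile of olfactory receptor genes (-4.57). KIT, ESR2, PGR, LGR5, CDH1, CDH11, CLDN1, CLDN3, CLDN4, ITGB3 and ITGB6 are open on every array.

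Nuclear receptors, transcription factors switched by hormones and lipids, were on in 30 of 48 cases (62.5%), near the 68.9% of all genes. Steroid receptors were mostly not among those that were on. Of 6 steroid receptors 2 were on. ESR1, the oestrogen receptor, read -2.95, -3.08 and -2.99 by 1 probe and was off by 2 others. NR3C1, the glucocorticoid receptor, was below the olfactory mark at -4.87, -5.19 and -5.32 by 1 of 2 probes. ESR2, PGR and NR3C2 were off. Retinoid receptors were on in 5 of 6 cases, 4 of them above the olfactory mark, beside 68.9% of all genes that were on. Among them was RARA at 0.59, 0.58 and 0.62. NR2F2, an orphan receptor of the ovary and its vessels, was at -2.29, -2.33 and -1.93. The orphan receptors NR2F6 at 6.32, 6.15 and 6.18 and NR2F1 at 4.92, 4.63 and 4.69 were singled out after their values were seen.

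Peptide and lipid receptors tied to the ovary were on in 16 of 31 cases, and the reproductive hormone receptors were off throughout: FSHR, LHCGR, GNRHR, PRLR and AMHR2. LPA, a growth-promoting lipid of ascites, is read by receptors of which LPAR3 was on below the olfactory mark, at -4.90, -5.20 and -4.45, and LPAR1, LPAR4, LPAR5 and LPAR6 were off, and LPAR2 was not analysed here. CXCR4, a chemokine receptor, was at -0.20, -0.55 and -0.20, and IL6ST, the shared signalling chain of interleukin-6 cytokines, was at -0.17, -0.45 and -0.39 while IL6R was off. The other IL6ST probes were on with means from -1.14 down to -4.47, and the mean over its probes was -2.52. TFRC, which takes up iron-loaded transferrin, was at 3.81, 4.09 and 4.05. LEPR, the leptin receptor, was singled out after its values were seen, at 5.70, 5.76 and 5.91 by 1 of 4 probes.

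Receptors of the developmental pathways were on in 28 of 35 cases. Of the NOTCH receptors, which are cut on contact with a neighbouring cell, all 4 were on, with NOTCH3 at 3.12, 3.46 and 3.29 and NOTCH1 at -0.90, -0.81 and -0.93. A second NOTCH1 probe read -3.54, -3.55 and -3.47. Frizzled receptors for WNT ligands were on in 9 of 10 cases, among them FZD7 at 0.39, 0.43 and 0.52, while the WNT-associated stem cell receptor LGR5 was off. The Hedgehog pair was on, the transducer SMO at 2.03, 2.08 and 2.07 and the receptor PTCH1 at -1.57, -1.15 and -1.13. Both TGF-beta receptors were on, TGFBR1 at -2.58, -2.80 and -2.81 and TGFBR2 at -1.71, -1.46 and -1.74. Death receptors, which start caspase cleavage, were on in 8 of 12 cases (66.7%), near the 68.9% of all genes. TNFRSF10B, a receptor of the ligand TRAIL, was at 3.67, 3.65 and 3.67, and its close paralogue TNFRSF10A was off. FAS was at -2.03, -2.10 and -2.15, and its other probes had means of -2.76 and -4.55.

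Among the oncogenes, the RAS, RAF, PI3K and SRC kinase genes were on in 29 of 31 cases. NRAS was at -0.58, -0.30 and -0.26 and the kinase BRAF at -0.81, -1.0 and -1.0. PIK3CA, a catalytic subunit of PI3K, was at 0.55, 0.65 and 0.52, and PIK3CD, the subunit best known from leukocytes, was at -1.71, -1.92 and -1.87. A second PIK3CD probe lay below the olfactory mark, at -4.83, -5.66 and -5.29. AKT1, a kinase downstream of PI3K, was at 1.69, 1.60 and 1.72, and AKT2 was on. SRC was at -0.85, -1.01 and -0.92. PIK3CG, also a leukocyte subunit, was off.

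Oncogenic transcription factors were on in 27 of 37 cases (73.0%), near the 68.9% of all genes. Within the MYC family, MYC was at 3.32, 3.41 and 3.28, MYCL read -2.66, -2.77 and -2.63 by 1 of 2 probes, and MYCN, the form of neuroblastoma, was off. HMGA1 was at 4.57, 4.61 and 4.67 and HMGA2 at 4.71, 4.69 and 4.75, both chromatin proteins of the embryo. The other 2 probes of HMGA2 were on too, the lower of them at 0.36, 0.28 and 0.31. GLI1, the effector of Hedgehog signalling, was at 1.37, 1.14 and 1.17, and YAP1, held back by Hippo kinases, was at 2.37, 2.01 and 2.14. MYBL2 was at 1.38, 1.41 and 1.49 and FOXM1 at 1.70, 1.82 and 1.78, both factors of the dividing cell. JUN and ETS1 were off, as were the blood factors TAL1, LMO2 and TLX1.

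Cell cycle, survival and chromatin oncogenes were on in 25 of 27 cases, 19 of them above 0, beside the same 47.4% of all genes that were on. All D-type cyclins, which start the cycle with CDK4 and CDK6, were on, CCND2 at 5.02, 5.24 and 5.25, CCND1 at 1.29, 1.17 and 1.23, and CCND3 at 0.08, 0.01 and 0.14. CDK4 was at 4.53, 4.63 and 4.51 and CDK6 at -2.39, -3.04 and -2.68. CCNE1, the cyclin often amplified in ovarian carcinoma, was at 4.2, 4.10 and 4.10. TERT, the catalytic subunit of telomerase, which most normal cells lack, was at 1.53, 1.37 and 1.34. EZH2, which methylates histone H3, was at 2.13, 2.04 and 2.09. MDM2, a ubiquitin ligase, was at -0.37, -0.19 and -0.26, and BCL2, which blocks apoptosis, was at -2.75, -2.49 and -2.21. Other probes that were on had means of -1.07 and -3.96 for MDM2 and -3.39 for BCL2.

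**Figure D5:**
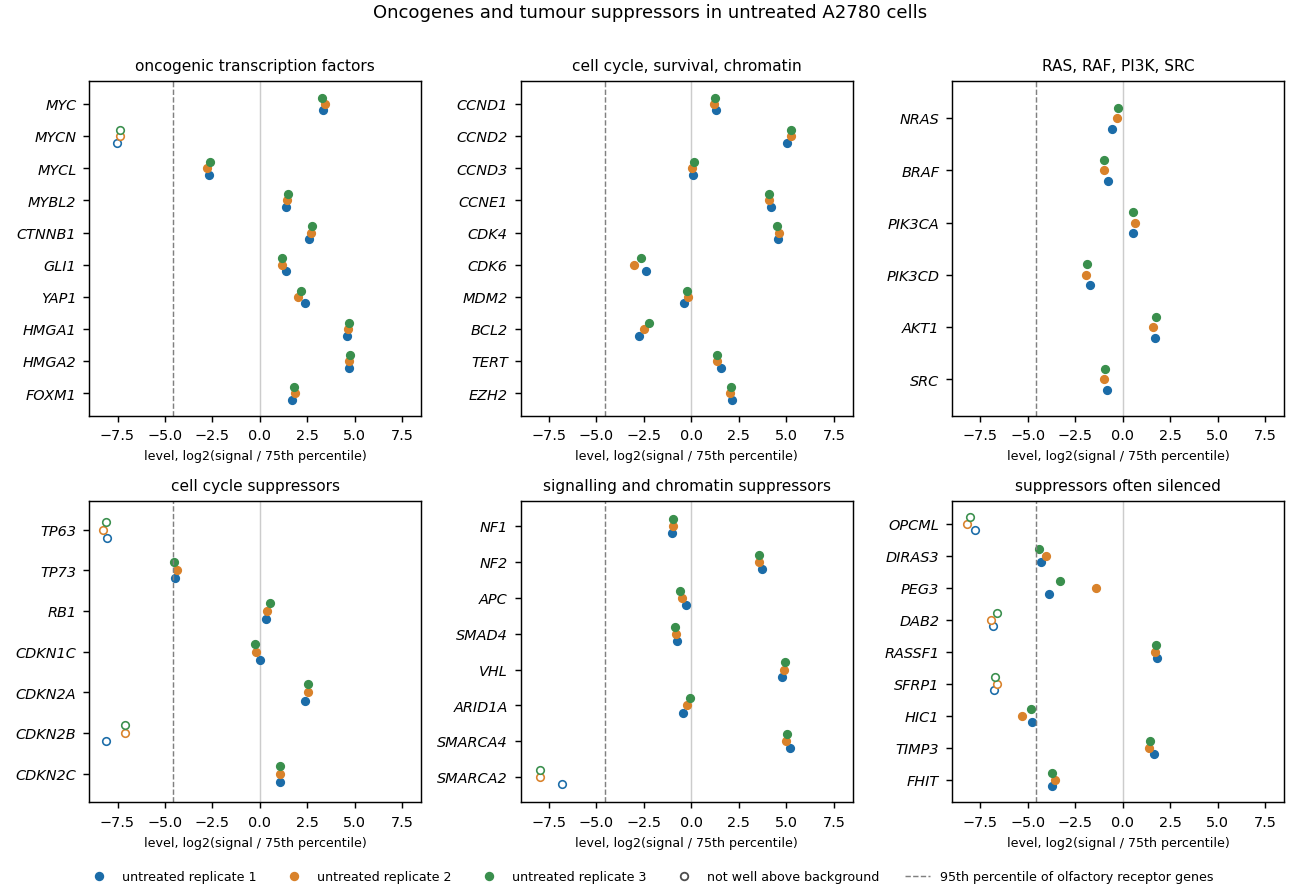
Level of oncogenes (upper row) and tumour suppressors (lower row) on the 3 untreated arrays, in log2 units relative to the 75th percentile of the array. Filled points were well above background and open points were not, and the dashed line is the 95th percentile of olfactory receptor genes (-4.57). MYCN, TP63, CDKN2B, SMARCA2, OPCML, DAB2 and SFRP1 are open on every array, and the 3 points of PEG3 lie apart.

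Tumour suppressors of the cell cycle were on in 17 of 19 cases. TP73 was close to the olfactory mark, at -4.49, -4.39 and -4.54 by 1 of 2 probes, and TP63, the factor of basal epithelia, was off. RB1, the brake on E2F factors, was at 0.31, 0.38 and 0.52. CDKN2A, which encodes the CDK4 inhibitor p16 and, in another reading frame, ARF, was at 2.36, 2.54 and 2.51, and its second probe read 0.37, 0.58 and 0.56. Its neighbour CDKN2B, which encodes the related inhibitor p15, was off. CDKN2C was at 1.04, 1.08 and 1.05, and CDKN1C was at 0.01, -0.19 and -0.27.

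All 20 DNA repair suppressors were on. BRCA1 was at 1.07, 1.06 and 0.95 and BRCA2 at -1.96, -2.21 and -2.16, both needed to mend double-strand breaks. FANCF, of the crosslink repair complex, was at 1.14, 0.79 and 0.80. MGMT, which removes alkyl groups from guanine, was at 1.41, 1.31 and 1.25.

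Signalling and chromatin suppressors were on in 32 of 33 cases, and the exception was SMARCA2. NF1, which switches RAS off, was at -1.03, -0.95 and -0.95. NF2 was at 3.72, 3.54 and 3.56, with a second probe at -1.23, -1.2 and -1.2, and VHL was at 4.78, 4.87 and 4.90. APC, of the beta-catenin destruction complex, was at -0.29, -0.48 and -0.58, with a second probe at -5.61, -5.34 and -5.08. SMAD4, which carries TGF-beta signals, was at -0.75, -0.79 and -0.88. ARID1A, a SWI/SNF subunit that is often mutated in ovarian carcinoma, was at -0.45, -0.22 and -0.10. SMARCA4 and SMARCA2 encode the alternative motor subunits of that remodelling complex. SMARCA4 was at 5.18, 5.0 and 5.05, while SMARCA2 was off by both of its probes.

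For 2 pairs of related genes of which 1 was on and the other off, SMARCA4 with SMARCA2 and CDKN2A with CDKN2B, the 250 bases before their starts are shown, again from RefSeq on GRCh38.p14 with CG pairs in capitals. SMARCA4 lies at chr19:10960780-10961029, plus strand, and holds 44 CG pairs. SMARCA2 lies at chr9:2015097-2015346, plus strand, and holds 29. CDKN2A lies at chr9:21995325-21995574, minus strand, with 24, and CDKN2B lies at chr9:22009306-22009555, minus strand, with 18. All 4 windows are CG-rich beside the median of 5 for genes that were off, so the windows of SMARCA2 and CDKN2B were unlike most silent genes in this respect. They were not unusual beside the 12 tumour suppressors that were off, which had a median of 18 and an upper quartile of 29.8. The CDKN2A window precedes the start of the ARF transcript, while the p16 transcript, the counterpart of CDKN2B, starts further downstream and its window is not shown. The arrays do not measure methylation or gene copies.
SMARCA4: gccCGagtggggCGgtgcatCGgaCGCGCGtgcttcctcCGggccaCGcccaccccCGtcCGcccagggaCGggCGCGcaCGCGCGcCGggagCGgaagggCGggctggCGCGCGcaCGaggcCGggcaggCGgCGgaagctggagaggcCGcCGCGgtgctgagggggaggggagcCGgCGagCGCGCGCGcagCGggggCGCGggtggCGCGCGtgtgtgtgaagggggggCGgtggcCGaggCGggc
SMARCA2: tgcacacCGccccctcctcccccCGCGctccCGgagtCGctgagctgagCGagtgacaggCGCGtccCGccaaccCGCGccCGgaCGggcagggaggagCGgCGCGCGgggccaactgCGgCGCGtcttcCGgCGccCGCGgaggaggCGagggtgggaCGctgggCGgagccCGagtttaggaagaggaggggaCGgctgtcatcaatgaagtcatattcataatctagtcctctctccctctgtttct
CDKN2A: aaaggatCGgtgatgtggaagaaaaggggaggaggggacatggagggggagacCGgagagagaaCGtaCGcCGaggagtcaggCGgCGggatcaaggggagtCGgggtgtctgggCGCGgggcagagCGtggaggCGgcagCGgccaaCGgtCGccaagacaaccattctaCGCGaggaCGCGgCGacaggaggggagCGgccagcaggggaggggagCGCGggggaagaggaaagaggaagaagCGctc
CDKN2B: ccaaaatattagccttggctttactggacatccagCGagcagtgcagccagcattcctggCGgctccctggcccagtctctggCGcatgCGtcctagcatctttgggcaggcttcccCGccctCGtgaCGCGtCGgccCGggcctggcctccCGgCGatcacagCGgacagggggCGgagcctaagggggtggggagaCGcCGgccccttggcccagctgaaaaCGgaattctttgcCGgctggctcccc

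Suppressors known to be silenced in ovarian carcinoma were on in 15 of 29 cases and off in 13. Off were OPCML, a surface protein of the immunoglobulin type, DAB2, an adaptor of endocytosis, and SFRP1, SFRP2 and SFRP5, secreted inhibitors of WNT. DAPK1, DLEC1, CDH13, ARL11, TCEAL7, HTRA1, CADM1 and IGFBP3 were off as well. RASSF1, a RAS-binding scaffold, was at 1.80, 1.69 and 1.73, and TIMP3, an inhibitor of matrix proteases, was at 1.64, 1.39 and 1.41. The imprinted gene DIRAS3 was low at -4.30, -4.07 and -4.44, and FHIT, at a fragile site, was low at -3.73, -3.57 and -3.71. HIC1 was below the olfactory mark at -4.81, -5.30 and -4.83. PEG3, another imprinted gene, read -3.88, -1.40 and -3.31 by 1 of 2 probes, so that the second array stood well above the others. Its SD of 1.30 was the largest of the 140 listed key genes that were on, of which 70 had an SD of 0.1 or less.

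Cadherins hold cells together by pairing across the gap between them, and epithelial and mesenchymal cells use different members. CDH1, the E-cadherin of epithelia, was off, and CDH2, the N-cadherin of neural and mesenchymal cells, was at 0.36, 0.19 and 0.01. CDH6, of kidney and ovarian carcinoma, was near the olfactory mark at -4.89, -4.50 and -4.45, CDH3 was called on the second array alone, and CDH11 was off. Of the catenins, which link cadherins to actin, CTNNB1 was on at 2.59, 2.70 and 2.75 and CTNNA1 at 2.18, 2.53 and 2.34. CTNND1 was at -1.96, -1.63 and -1.55, and JUP was at 1.00, 1.31 and 1.30. Second probes had means of 0.53 for CTNNB1, -0.19 for CTNNA1 and -4.06 for CTNND1. CTNNA2 was also on, while CTNNA3 and CTNND2 were off. Cadherins and catenins together were on in 16 of 29 cases.

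Desmosomes, the rivets between epithelial cells, were represented by 5 of 14 genes. DSP, DSG2 and PKP2, which build the core of a desmosome in simple epithelia, were off, DSC2 was below the olfactory mark at -4.85, -5.16 and -4.94, and PKP3 was at -1.04, -1.03 and -0.98. Tight junction genes were on in 19 of 30 cases (63.3%, beside 68.9% of all genes), and claudins, which seal the junction, in 12 of 21. CLDN1, CLDN3 and CLDN4, of which the latter pair is typical of ovarian carcinoma, were off. CLDN7 was at -4.17, -4.05 and -4.11, and CLDN6, a claudin of the embryo, was below the olfactory mark at -5.38, -5.04 and -4.81. The cytoplasmic plaque protein TJP1 was at 0.64, 0.70 and 0.70, and OCLN was at -1.93, -2.09 and -2.10.

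Integrins, the receptors for extracellular matrix, were on in 18 of 26 cases (69.2%), about the same share as the 68.9% of all genes. ITGAV, a chain of vitronectin receptors, was at 3.33, 3.24 and 3.27. Of its possible partners, ITGB1 was at 1.64, 1.40 and 1.47 and ITGB5 was on, while ITGB3, ITGB6 and ITGB8 were off. ITGA5, the partner of ITGB1 in the fibronectin receptor, was at -0.44, -0.42 and -0.29, and the laminin chain ITGA6 was at -2.04, -1.37 and -1.52. ITGB4 was at -2.63, -2.68 and -2.75, and ITGA3 was at -4.63, -4.32 and -4.27. ITGB2, the beta chain of leukocytes, was off.

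Adhesion molecules of the immunoglobulin type were on in 16 of 37 cases. NECTIN2 was at 3.05, 2.75 and 2.69, ALCAM at -0.27, -0.40 and -0.35, MCAM at -1.50, -1.53 and -1.29, and ICAM1 at -3.77, -4.20 and -4.11. A second NECTIN2 probe read -0.36, -0.48 and -0.32. NCAM1, VCAM1 and CADM1 were off, and L1CAM, found on invasive ovarian carcinoma, was not on in all arrays. The remaining surface molecules, among them proteoglycans, were on in 14 of 20 cases (70.0%), near the 68.9% of all genes. CD44, the hyaluronan receptor, read -5.98, -5.49 and -5.63 and was called on the second array alone. SDC1, a syndecan, was at 3.84, 3.78 and 3.70, and SDC2 was not on in all arrays. GPC3, a glypican of the embryo and of liver tumours, was at 0.48, 0.70 and 0.68, and GPC4 was at -1.58, -1.48 and -1.51. CD9, a tetraspanin, was close to the olfactory mark at -4.43, -4.35 and -4.52. The selectin genes SELE and SELP were off.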

How the data were processed

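Per the labels and file headers, the authors labelled total RNA with Cy3, scanned 1-colour Agilent arrays and extracted the deposited spot intensity with Feature Extraction 10.7.3.1. The paper names a lowess step and another labelling kit than the labels do. The deposited series table holds the authors' log2 values, used only as an alternative. The 3 untreated arrays were read from the scanner files (58717 gene spots each), outlier spots were left out, and the processed intensity was scaled by the 75th percentile of each array. Spots of a probe were averaged. A gene's level came from a probe called on all 3 arrays where it had one, and among such probes from the one with the highest mean. Probes were named through their RefSeq accession, 25715 of 27245 such probes, and 16690 of 42405 gene probes had no name here and were left out. Values are given for genes marked as key in the lists, whatever their call, and other members by call; exceptions are named in the text. Members and lists were chosen with earlier results of these data known, and the olfactory mark after the calls were seen. Python 3.11.15, numpy 2.4.6, pandas 2.3.3, R 4.3.3 and limma 3.58.1 were used. The code for levels and calls was tested on simulated data. The presence flags there were set to the known state, so the scanner software's own call was not tested. The alternatives were other calls of presence, other probe rules, kept outlier spots, other background correction and scaling, the authors' table, and each array left out. The files hold no mean signal, so normexp used the median signal, and no design gene names. The number of arrays limits the precision. Some listed genes are counted but not reported by name here.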

Additional observations from a re-analysis of the deposited data

How the results depend on the processing

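The counts of genes that were on, over all genes and over the lineage, receptor, oncogene, tumour suppressor and adhesion lists, stayed within 1.5 times under every alternative tried. Within that limit the list counts depended on the call and probe rule. They ran from 72 to 124 for lineage, 96 to 141 for receptor and 60 to 109 for adhesion genes. For oncogenes the counts ran from 75 to 85, and for tumour suppressors from 77 to 90. Over all genes they ran from 12026, with signal above the 99th percentile of the negative controls, to 15457, with the software's call of a positive and significant signal. Requiring every probe of a gene gave 12725, keeping outlier spots 13582, and the olfactory mark, chosen after seeing the data, 12662. The count of genes that were off moved from 5220 to 2402 with the call of a positive and significant signal, so the state of the faintest genes rests on the call used. The median level of the 140 key genes that were on was -0.38. It became -0.43 with normexp, -0.45 with the authors' table, -0.79 with the mean of a gene's probes, under which 18 genes moved by over 1 and 6 changed sign, and -1.69 with the 75th percentile over detected probes alone, which lowers every level by 1.31. Quantile and spike-in scaling left the median level in place, the second because it was set to keep the mean over arrays. Leaving out 1 array gave 13646 to 13733 genes on and 5346 to 5479 off, and 93 to 96 lineage, 119 to 122 receptor, 81 to 82 oncogene, 84 to 85 tumour suppressor and 88 to 90 adhesion genes on, with a median level of -0.40 to -0.38. Names of the array design could not be tried, as the files used here hold none. No paired analysis was possible because the description covers 1 group.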

Other observations

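Cancer-testis genes, which are read in germ cells and in some tumours, were on in 13 of 29 cases, and the classical antigens MAGEA1, MAGEA4, MAGEA10, MAGEC1 and MAGEC2 were off. PRAME, an antigen of the same class, was at 1.25, 1.12 and 1.21. The oncofetal RNA-binding genes IGF2BP1 and IGF2BP3 were singled out after their values were seen. IGF2BP1 was at 3.91, 3.85 and 3.83, and IGF2BP3 was at 3.67, 3.44 and 3.41. With LIN28B and HMGA2 these genes are known members of the embryonic programme that let-7 microRNAs switch off, and let-7 was not analysed here.

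The 10 genes with the largest SD among those that were on each had 1 array apart from the others, which was the highest of the 3 except for OR4L1, where it was the lowest. ALDH1A2, which makes retinoic acid, was at 1.07, -3.71 and -3.78, with an SD of 2.78. MYCBPAP was at -0.30, -4.67 and -4.92. LPP-AS2, an antisense RNA, was at -4.41, -0.25 and -4.29, with untreated replicate 2 apart. GPR183, an oxysterol receptor of immune cells, was at -5.60, -5.43 and -1.88, with untreated replicate 3 apart. The others were FAM230C, TMED6, SYDE2, OR4L1, H2AC1 and TBC1D26, with SDs between 1.78 and 2.19.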
